A study of Mus musculus with 7 samples.

Results

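The 36 mouse genes described here encode enzymes and regulators of sterol and fatty acid synthesis. They were chosen by name, from what their products do, with earlier results of these data known. Of the 28987 genes listed, 35 are members: 22 genes of the sterol pathway, 8 of fatty acid synthesis, and 5 of the liver X receptor (LXR) system. The expression of the remaining member, Hmgcs1, was not analysed here, and only its promoter is described. Bulk RNA sequencing covered 7 libraries of sorted marrow cells, taken from single C57BL/6 mice. The HSC/P libraries hold stem and progenitor cells enriched by the receptor CD117, from which the mutant clone was sorted. They were 2 of RUNX1mut/HMGA2-OE, cells with a RUNX1 mutation and overexpression of HMGA2, and 1 of HMGA2-OE. The Ly6G+ libraries hold sorted cells that carry a surface protein of neutrophils, with 1 library each of RUNX1mut/HMGA2-OE, RUNX1mut, HMGA2-OE and Control. All HSC/P cells carried HMGA2-OE, so no HSC/P library was without it. The sources used here give no age of the mice, no RUNX1 allele, and no promoter for the HMGA2 overexpression. Values are TPM, a share of transcripts corrected for transcript length, and the read depth behind them is unknown.

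Cholesterol is built from acetyl-CoA through mevalonate, isoprenoid diphosphates, squalene and lanosterol, and fatty acids are built from the same acetyl-CoA. When membranes run short of sterol, the escort protein Scap carries SREBP precursors to the Golgi, where they are cut. The released factors, encoded by Srebf1 and Srebf2, switch on the enzymes of both routes, and Insig1 holds the complex back when sterol is plentiful. Oxysterols activate the LXR nuclear receptors, which raise cholesterol efflux and also Srebf1. Dividing cells need both products for new membrane, whereas neutrophils leave division behind as they mature.

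Promoter sequences from RefSeq (build GRCm38.p6, 250 bases before to 50 after the start site) were at hand for 29 of the 36 symbols. The sterol regulatory element was searched as TCACCCCAC and as TCACNCCAC, the CCAAT box as CCAAT, the E-box as CACGTG, and the LXR element as a direct repeat of AGGTCA spaced by 4 free bases, each on both strands. Only the promoter of Hmgcs1 held TCACCCCAC, 1 of 29 or 3.45%, against 0.614% of 27025 genes, and TCACNCCAC added no other member. The CCAAT box was in 22 of 29 (75.9%), against 41.1% of all genes, and in 17 of 19 sterol pathway promoters (89.5%). The E-box was in 6 of 29 (20.7%), against 8.09%, and the LXR element in 0, against 0.0148%. A match is a run of letters and not a binding site. Hmgcs1 (cytosolic HMG-CoA synthase) is shown for its sterol element. Idi1 (isopentenyl-diphosphate isomerase) and Fasn (fatty acid synthase) are shown as members that were higher in HSC/P, and Msmo1 (methylsterol monooxygenase) as a member that was lower there, all 3 chosen after their values were seen. Capitals mark TCACCCCAC and each CCAAT, which reads ATTGG on the other strand. In the Fasn promoter 2 matches overlap.
Hmgcs1, chr13:119690101-119690400, plus strand: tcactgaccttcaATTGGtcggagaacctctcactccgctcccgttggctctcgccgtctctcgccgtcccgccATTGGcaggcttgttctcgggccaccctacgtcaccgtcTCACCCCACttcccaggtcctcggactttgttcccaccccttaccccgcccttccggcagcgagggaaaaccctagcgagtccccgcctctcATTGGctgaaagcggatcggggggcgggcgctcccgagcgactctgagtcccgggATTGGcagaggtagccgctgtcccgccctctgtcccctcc
Idi1, chr13:8885356-8885655, plus strand: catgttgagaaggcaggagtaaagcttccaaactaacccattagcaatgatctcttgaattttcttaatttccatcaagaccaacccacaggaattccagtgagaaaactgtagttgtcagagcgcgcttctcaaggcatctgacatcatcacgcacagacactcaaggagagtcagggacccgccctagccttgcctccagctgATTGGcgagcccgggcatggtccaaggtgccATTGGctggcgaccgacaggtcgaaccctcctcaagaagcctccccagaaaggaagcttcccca
Msmo1, chr8:64733529-64733828, minus strand: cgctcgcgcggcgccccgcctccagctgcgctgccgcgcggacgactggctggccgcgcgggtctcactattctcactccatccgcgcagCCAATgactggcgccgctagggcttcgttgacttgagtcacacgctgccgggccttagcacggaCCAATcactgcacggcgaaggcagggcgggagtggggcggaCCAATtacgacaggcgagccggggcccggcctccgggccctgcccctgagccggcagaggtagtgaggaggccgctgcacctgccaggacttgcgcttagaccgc
Fasn, chr11:120824498-120824797, minus strand: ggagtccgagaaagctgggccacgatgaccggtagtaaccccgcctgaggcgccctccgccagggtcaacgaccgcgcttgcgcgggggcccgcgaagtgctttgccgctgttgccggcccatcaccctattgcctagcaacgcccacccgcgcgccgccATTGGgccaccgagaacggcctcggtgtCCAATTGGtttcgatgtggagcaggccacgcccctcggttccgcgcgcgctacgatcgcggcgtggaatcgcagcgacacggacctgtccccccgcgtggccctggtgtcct

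The targeted genes were read first. Runx1 was at 219 and 225 TPM in RUNX1mut/HMGA2-OE HSC/P, against 18.9 TPM in HMGA2-OE HSC/P. The Ly6G+ level of Runx1 was 21.2 TPM in RUNX1mut/HMGA2-OE and 11.6 TPM in RUNX1mut, against 3.36 TPM in HMGA2-OE and 3.86 TPM in Control. Both libraries labelled as mutant were thus above both others. Hmga2 reached 138 to 176 TPM in HSC/P. Among Ly6G+ libraries Hmga2 had 12.1 TPM with both lesions and 3.72 TPM with HMGA2-OE alone, while RUNX1mut had 1.36 TPM and Control 1.45 TPM. Kit, the CD117 gene, spanned 61.8 to 155 TPM in HSC/P and 3.43 to 5.20 TPM in Ly6G+ cells. Ly6g was at 7.28 to 136 TPM in HSC/P and 269.6 to 441 in Ly6G+ cells. Summed TPM of 12 neutrophil markers ran from 18049 to 63247 in HSC/P and from 308989 to 678794 in Ly6G+ cells, and all 12 were at 1 TPM or more in every library. TPM sum to a fixed total, so a few genes at such levels lower the TPM of every other gene in that library. S100a8 alone held 3.11% of TPM in RUNX1mut/HMGA2-OE Ly6G+, against 40.2% in RUNX1mut, 55% in HMGA2-OE and 44.3% in Control. Tests therefore used TPM scaled by a trimmed mean of log ratios. In the Ly6G+ fit the scale factors were 1.58, 1.02, 0.690 and 0.901 in the same order. Deposited TPM of RUNX1mut/HMGA2-OE Ly6G+ are thus not level with those of the other Ly6G+ libraries. The median gene differed by 0.10 (log2) between HSC/P and Ly6G+ cells after this scaling and by 1.46 without it. Without scaling it also differed by 0.14 for the RUNX1 comparison in HSC/P and by 0.13 for the HMGA2-OE term in Ly6G+ cells.

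HSC/P expressed nearly the whole route. At 1 TPM or more in every HSC/P library were 34 of 35 members, and 19 reached 10 TPM in each. Me1, the cytosolic malic enzyme, was the exception, at 0.167 TPM or less in every library. In Ly6G+ cells 26 members reached 1 TPM in every library and 7 reached 10 TPM. Acly (ATP citrate lyase, which makes cytosolic acetyl-CoA) had the most TPM of the fatty acid members, at 114 and 92.9 TPM in RUNX1mut/HMGA2-OE HSC/P and 148 in HMGA2-OE HSC/P. It was at 79.2, 45.6, 29.8 and 48.4 TPM in Ly6G+ cells of RUNX1mut/HMGA2-OE, RUNX1mut, HMGA2-OE and Control. Among sterol enzymes Fdps (farnesyl diphosphate synthase) had the most TPM in HSC/P, at 110.2, 67.7 and 121 TPM, in the same order of libraries. In Ly6G+ cells Msmo1 did, at 57.7, 34.3, 27.6 and 33.9 TPM. The leading sterol enzyme was thus a different gene in the HSC/P libraries and in the Ly6G+ libraries.

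**Figure D1:**
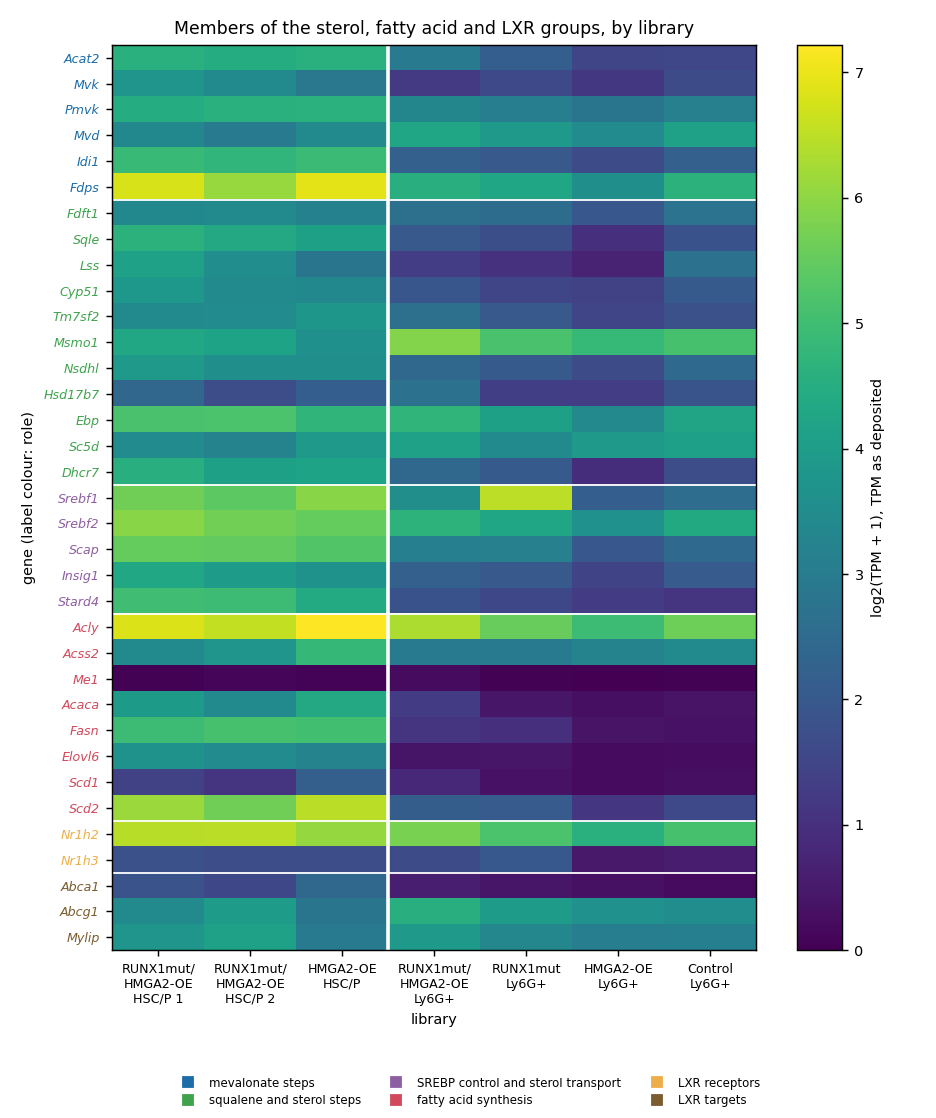
Level of each of the 35 listed members in each library as log2(TPM + 1), TPM as deposited, with genes in rows, coloured by role, and libraries in columns, HSC/P left of the white line. Fasn, Elovl6, Acaca and Scd2 are bright in HSC/P and dark in Ly6G+ cells, Msmo1 is brighter in Ly6G+ cells than in HSC/P, and Srebf1 stands out in the RUNX1mut Ly6G+ library.

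HSC/P and Ly6G+ cells were compared in the 5 libraries with HMGA2-OE, with RUNX1 mutation as a covariate. In bulk samples fewer cells of a type and less RNA per cell cannot be told apart. Members split both ways. Of 34 tested, 11 were higher and 10 lower in HSC/P at an adjusted p under 0.05 (limma, Benjamini-Hochberg over 12686 genes). Over all genes 32.2% were higher and 32.5% lower, so 64.7% were called, and the members' share was close to that background. The sterol pathway had 7 higher and 6 lower of 22 tested, fatty acid synthesis 4 higher and 1 lower of 7, and the LXR genes 0 higher and 3 lower of 5. Of the 34, 8 reached 1 TPM in fewer than 2 Ly6G+ libraries of this fit, and so met its filter only through HSC/P. Elovl6, Scd1 and Abca1 reached it in neither, and Fasn, Acaca, Lss, Dhcr7 and Nr1h3 in 1. On scaled values all of these but Nr1h3, at -0.50, were higher in HSC/P. The counts that include these 8 are a description and support nothing about fatty acid synthesis as a group. Without any scaling 24 members were called higher and 1 lower. Of the 34, 18 were higher and 6 lower under all 4 scalings tried, and 10 changed direction: Pmvk, Fdft1, Tm7sf2, Nsdhl, Ebp, Srebf2, Acly, Acss2, Nr1h2 and Nr1h3.

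The largest positive differences in HSC/P were those of Fasn, Scd2, Elovl6 and Acaca, all listed under fatty acid synthesis. Of those given here, Fasn, Elovl6 and Acaca met the filter only through HSC/P, so their differences are a description. Fasn (fatty acid synthase, at chr11:120805846-120824547 on the minus strand, build mm10 here and for all genes) was at 29.8 and 33.6 TPM in RUNX1mut/HMGA2-OE HSC/P and 31.9 in HMGA2-OE HSC/P. Its Ly6G+ levels were 1.14, 0.95, 0.302 and 0.282 TPM in RUNX1mut/HMGA2-OE, RUNX1mut, HMGA2-OE and Control. The groups did not overlap, and the log2 difference was 3.02 ± 0.20 (SE, adjusted p = 0.00096, limma). Scd2 is a stearoyl-CoA desaturase, at chr19:44293674-44306864 on the plus strand. It was at 68.9 and 49.0 TPM in RUNX1mut/HMGA2-OE HSC/P and 87.8 in HMGA2-OE HSC/P, against 3.38, 3.18, 1.20 and 2.01 TPM in Ly6G+ cells of RUNX1mut/HMGA2-OE, RUNX1mut, HMGA2-OE and Control. The lowest HSC/P library was far above the highest Ly6G+ library, with a log2 difference of 2.87 ± 0.30 (adjusted p = 0.0022, limma). Elovl6, which lengthens palmitate, was at 12.1 and 10.1 TPM in RUNX1mut/HMGA2-OE HSC/P and 8.47 in HMGA2-OE HSC/P, against 0.333, 0.351, 0.149 and 0.185 TPM in the same order of Ly6G+ libraries. It was almost off in Ly6G+ cells, and its log2 difference was 2.16 ± 0.20 (adjusted p = 0.0017, limma). Acaca (acetyl-CoA carboxylase, which commits acetyl-CoA to fatty acids) was at 14.3 and 9.91 TPM in RUNX1mut/HMGA2-OE HSC/P and 19.5 in HMGA2-OE HSC/P. In Ly6G+ cells only RUNX1mut/HMGA2-OE, at 1.38 TPM, was above 1 TPM, and RUNX1mut, HMGA2-OE and Control had 0.355, 0.221 and 0.300 TPM. Its log2 difference was 1.99 ± 0.43. Its adjusted p was 0.017 (limma), and the call was lost without replicate 1 of RUNX1mut/HMGA2-OE HSC/P, where the difference was 1.90. The call of Acaca held without each other library, but its size did not: it was 1.25 without HMGA2-OE HSC/P, 1.39 without HMGA2-OE Ly6G+ and 2.91 without RUNX1mut/HMGA2-OE Ly6G+.

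The enzymes that supply acetyl-CoA did not share that pattern. Acss2 (acetyl-CoA synthetase, chr2:155517948-155585724, plus strand) was at 9.92 and 12.5 TPM in RUNX1mut/HMGA2-OE HSC/P and 26.9 in HMGA2-OE HSC/P. Its Ly6G+ levels were 6.95, 6.75, 8.43 and 9.74 TPM in RUNX1mut/HMGA2-OE, RUNX1mut, HMGA2-OE and Control. On scaled values Acss2 was lower in HSC/P by a log2 difference of -0.71 ± 0.17 (adjusted p = 0.021, limma), which turned to 1.02 without scaling. Acly had a scaled log2 difference of -0.67 ± 0.25 (adjusted p = 0.075, limma), short of the threshold, and one of 1.19 without scaling. Scd1, the other stearoyl-CoA desaturase measured, was far below Scd2. It was at 1.66 and 1.11 TPM in RUNX1mut/HMGA2-OE HSC/P and 3.51 in HMGA2-OE HSC/P, against 0.732, 0.272, 0.154 and 0.218 TPM in the same order of Ly6G+ libraries, with a log2 difference of 0.31 ± 0.37 (adjusted p = 0.49, limma).

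Early sterol enzymes that were higher in HSC/P included Idi1 and Sqle. Idi1, which isomerises the isoprenoid unit, was at 28.9 and 26 TPM in RUNX1mut/HMGA2-OE HSC/P and 29.2 in HMGA2-OE HSC/P. Its Ly6G+ levels were 3.61, 3.08, 2.16 and 3.66 TPM in RUNX1mut/HMGA2-OE, RUNX1mut, HMGA2-OE and Control, with a log2 difference of 1.27 ± 0.16 (adjusted p = 0.0035, limma). Sqle (squalene epoxidase) was at 23.8 and 19.4 TPM in RUNX1mut/HMGA2-OE HSC/P and 16.2 in HMGA2-OE HSC/P. In Ly6G+ cells Sqle was at 3.05 TPM in RUNX1mut/HMGA2-OE, 2.34 in RUNX1mut, 1.02 in HMGA2-OE and 2.55 in Control, and its log2 difference was 1.25 ± 0.18 (adjusted p = 0.0049, limma). Both genes were separated between the cell types in every library. Dhcr7, which makes cholesterol from its last precursor, was at 22.1 and 16.2 TPM in RUNX1mut/HMGA2-OE HSC/P and 17.4 in HMGA2-OE HSC/P, against 4.31, 3.12, 0.927 and 2.24 TPM in Ly6G+ cells of RUNX1mut/HMGA2-OE, RUNX1mut, HMGA2-OE and Control. Its log2 difference was 0.996 ± 0.28 (adjusted p = 0.036, limma). Lss (lanosterol synthase), given library by library further on, had 1.03 ± 0.32 (adjusted p = 0.047, limma). Dhcr7 and Lss also met the filter only through HSC/P.

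Enzymes of both ends of the sterol route that were not called lay on either side of 0. Fdps had 0.67 ± 0.27, Mvk, mevalonate kinase, 0.67 ± 0.39, and Acat2, the thiolase that starts the route, 0.57 ± 0.24. Acat2 was at 22.9 and 21.4 TPM in RUNX1mut/HMGA2-OE HSC/P and 22.9 in HMGA2-OE HSC/P, against 6.98, 3.46, 1.83 and 1.91 TPM in Ly6G+ cells of RUNX1mut/HMGA2-OE, RUNX1mut, HMGA2-OE and Control. All HSC/P values of Acat2 were above all Ly6G+ values as deposited. Pmvk, phosphomevalonate kinase, was at 21 and 23.1 TPM in RUNX1mut/HMGA2-OE HSC/P and 23.6 in HMGA2-OE HSC/P, against 8.94, 7.48, 6.06 and 7.90 TPM in the same order, with a log2 difference of -0.28 ± 0.17. Cyp51, the lanosterol demethylase, was at 13.5 and 10.1 TPM in RUNX1mut/HMGA2-OE HSC/P and 9.29 in HMGA2-OE HSC/P, against 2.79, 1.83, 1.70 and 3.15 TPM, with 0.29 ± 0.25. Both were separated as deposited and near 0 once scaled. Nsdhl, a dehydrogenase of the demethylation steps, was at 11 to 14 TPM in HSC/P and 2.15 to 4.55 TPM in Ly6G+ cells, with 0.00238 ± 0.19. Tm7sf2, a sterol reductase, was at 10.04 and 10.2 TPM in RUNX1mut/HMGA2-OE HSC/P and 13.2 in HMGA2-OE HSC/P, against 5.31, 3.05, 1.84 and 2.44 TPM in Ly6G+ cells, with -0.11 ± 0.23.

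Msmo1, Mvd and Sc5d went the other way. Msmo1, which oxidises a methyl group of the sterol ring after the Cyp51 step (chr8:64718139-64733792, minus strand), was at 18.9 and 17.2 TPM in RUNX1mut/HMGA2-OE HSC/P and 11.3 in HMGA2-OE HSC/P. These were below all its Ly6G+ values of 27.6 to 57.7 TPM, and the log2 difference was -3.25 ± 0.21 (adjusted p = 0.00087, limma). Even without scaling it was -1.45, and Msmo1 was then the 1 member still called lower. Mvd (diphosphomevalonate decarboxylase, chr8:122433601-122443422, minus strand) was at 9.37 and 6.71 TPM in RUNX1mut/HMGA2-OE HSC/P and 9.82 in HMGA2-OE HSC/P. Its Ly6G+ levels were 17.9, 13.8, 10.2 and 16.7 TPM in RUNX1mut/HMGA2-OE, RUNX1mut, HMGA2-OE and Control, again with no overlap, and its log2 difference was -2.36 ± 0.19 (adjusted p = 0.0014, limma). Sc5d (a sterol desaturase, chr9:42251595-42264256, minus strand) was at 10.2 and 8.35 TPM in RUNX1mut/HMGA2-OE HSC/P and 14.0 in HMGA2-OE HSC/P, against 16.5, 9.74, 13.6 and 15.9 TPM in Ly6G+ cells of RUNX1mut/HMGA2-OE, RUNX1mut, HMGA2-OE and Control. These deposited values overlapped, and on scaled values the log2 difference was -2.17 ± 0.18 (adjusted p = 0.0013, limma). Without scaling Mvd and Sc5d were no longer called, at -0.64 and -0.42.

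A further set of sterol enzymes was called lower only once values were scaled. Hsd17b7, a ketosteroid reductase of the demethylation steps, was at 4.21 and 2.24 TPM in RUNX1mut/HMGA2-OE HSC/P and 3.48 in HMGA2-OE HSC/P, against 5.55, 1.55, 1.46 and 2.67 TPM in Ly6G+ cells of RUNX1mut/HMGA2-OE, RUNX1mut, HMGA2-OE and Control. These overlapped as deposited, and the scaled log2 difference was -1.41 ± 0.31 (adjusted p = 0.018, limma). Ebp, a sterol isomerase, was at 34.5 and 35.4 TPM in RUNX1mut/HMGA2-OE HSC/P and 25.6 in HMGA2-OE HSC/P, against 25.3, 16.2, 9.58 and 17.6 TPM in the same order, with -0.97 ± 0.13 (adjusted p = 0.0042, limma). Fdft1, squalene synthase, was at 9.44 and 9.74 TPM in RUNX1mut/HMGA2-OE HSC/P and 7.99 in HMGA2-OE HSC/P, against 5.30, 4.85, 2.87 and 5.76 TPM, with -0.66 ± 0.19 (adjusted p = 0.035, limma). Ebp and Fdft1 were above every Ly6G+ library as deposited, and their differences turned to 0.83 and 0.95 without scaling.

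**Figure D2:**
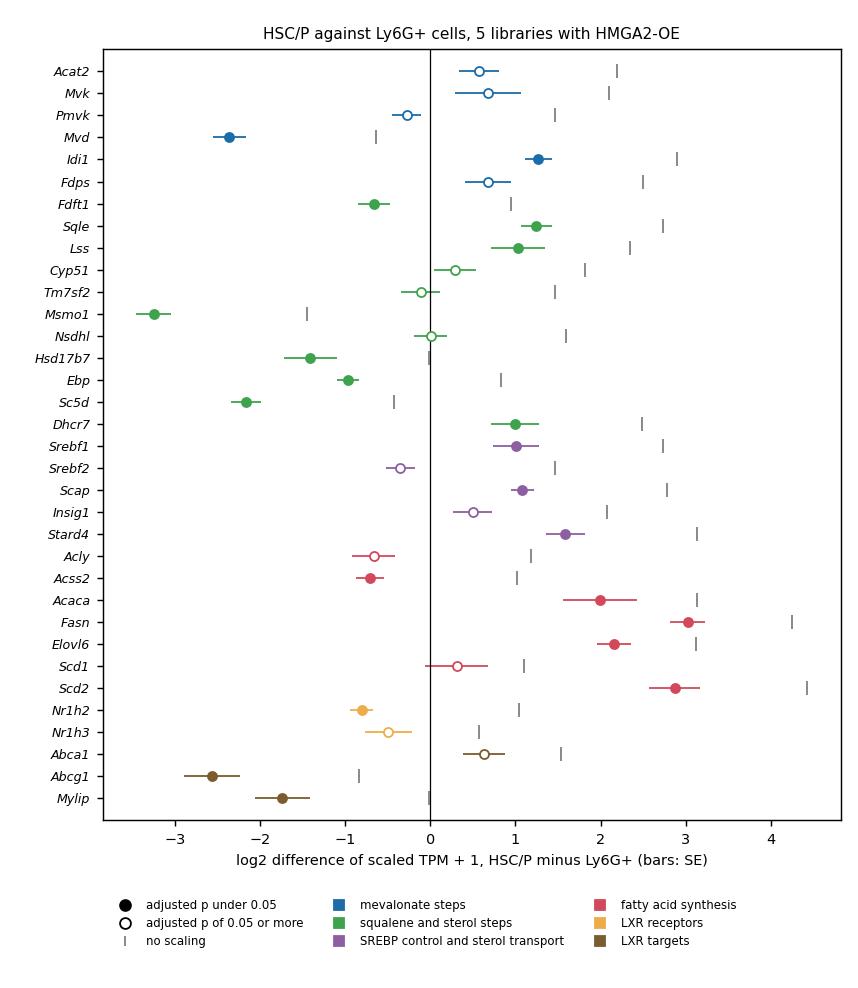
Log2 difference of scaled TPM + 1, HSC/P minus Ly6G+, for the 34 tested members, with SE bars, filled where the adjusted p is under 0.05, and a grey tick for the difference without scaling. Fasn at 3.02 and Scd2 at 2.87 lie farthest right, Msmo1 at -3.25 farthest left, and each tick lies to the right of its point.

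Ratios between members within a library do not depend on scaling. Of 9 ratios computed, 6 did not overlap between the cell types and 3 did. Most of the pairs were of genes already seen to differ, and no share over other gene pairs was computed. These counts are therefore only a description. Msmo1 over Sqle was 0.794 and 0.882 in RUNX1mut/HMGA2-OE HSC/P and 0.698 in HMGA2-OE HSC/P, and between 13.3 and 27.1 in the 4 Ly6G+ libraries. Mvd over Fdps, enzymes close in the mevalonate route, lay between 0.0814 and 0.0991 in HSC/P and between 0.704 and 0.915 in Ly6G+ cells. Fasn over Acly lay between 0.215 and 0.362 in HSC/P and between 0.00583 and 0.0209 in Ly6G+ cells, and Fasn had met the filter only through HSC/P. The 3 that overlapped were of regulators. Srebf1 over Srebf2 lay between 0.804 and 1.33 in HSC/P and between 0.250 and 5.02 in Ly6G+ cells, Nr1h2 over Nr1h3 between 29.7 and 38.7 in HSC/P and between 11.9 and 67.0 in Ly6G+ cells, and Scap over Insig1 between 2.31 and 3.08 in HSC/P and between 1.41 and 2.55 in Ly6G+ cells. Msmo1 took 3.24% to 5.62% of the TPM of the 17 sterol enzymes in HSC/P and 22.2% to 29.9% in Ly6G+ cells. Acly took 44.4% to 45.4% of the TPM of the fatty acid members in HSC/P and 74.0% to 84.9% in Ly6G+ cells. Scd2 took 23.4% to 27.5% in HSC/P and 2.99% to 5.53% in Ly6G+ cells.

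**Figure D3:**
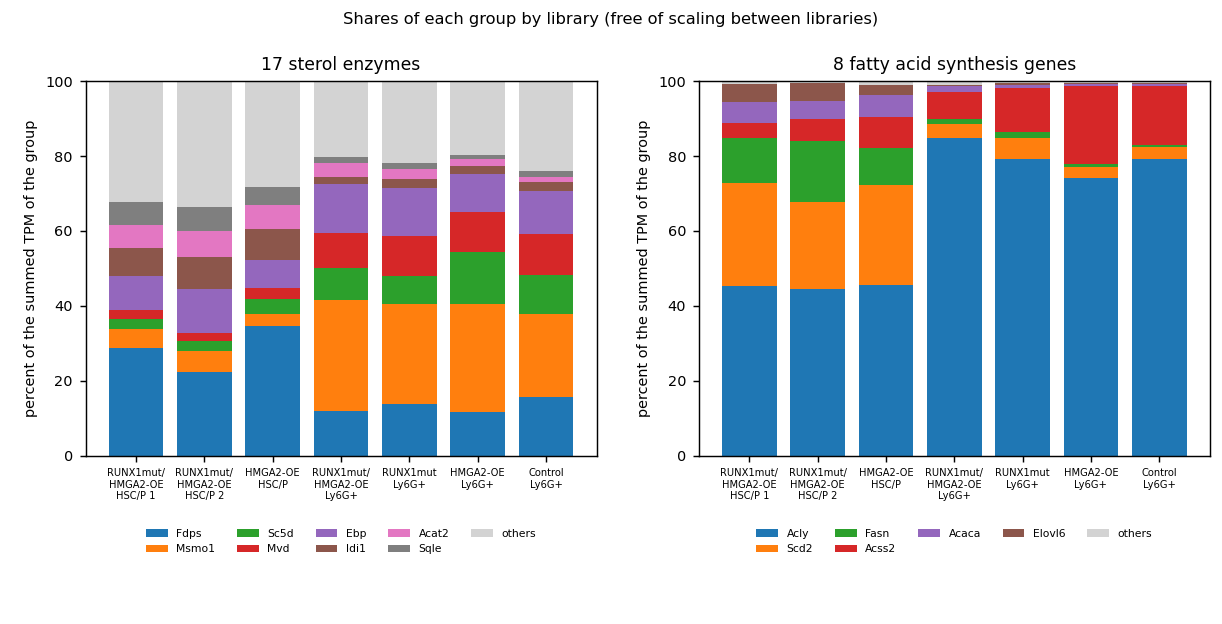
Percent of the summed TPM of the 17 sterol enzymes (left) and of the 8 fatty acid members (right) held by named genes in each library. Fdps is the largest share in the HSC/P bars and Msmo1 in the Ly6G+ bars on the left, and Acly fills 74.0% or more of each Ly6G+ bar on the right.

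Regulators also differed in direction. Stard4, a carrier that moves sterol between membranes, was at 30.9 and 29.8 TPM in RUNX1mut/HMGA2-OE HSC/P and 20.3 in HMGA2-OE HSC/P. It was at 2.55, 1.94, 1.44 and 1.18 TPM in Ly6G+ cells of RUNX1mut/HMGA2-OE, RUNX1mut, HMGA2-OE and Control, and its log2 difference was 1.59 ± 0.23 (adjusted p = 0.0053, limma). Scap, the escort, stood at 44.4 and 43.8 TPM in RUNX1mut/HMGA2-OE HSC/P and 37.4 in HMGA2-OE HSC/P, against 7.64, 7.82, 2.87 and 4.56 TPM in the same order of Ly6G+ libraries, with a log2 difference of 1.08 ± 0.13 (adjusted p = 0.0033, limma). Both were higher in every HSC/P library than in any Ly6G+ library, as deposited. Insig1, the brake on Scap, was at 19.2 and 14.8 TPM in RUNX1mut/HMGA2-OE HSC/P and 12.1 in HMGA2-OE HSC/P, against 3.62, 3.07, 1.79 and 3.24 TPM in Ly6G+ cells. Srebf2, the main activator of sterol genes, was at 60.5 and 50.8 TPM in RUNX1mut/HMGA2-OE HSC/P and 44.8 in HMGA2-OE HSC/P, against 24.2, 17.8, 11.6 and 20.0 TPM in the same order. Insig1 had a log2 difference of 0.50 ± 0.23 (adjusted p = 0.12) and Srebf2 one of -0.35 ± 0.17 (adjusted p = 0.13), neither past the threshold in limma. Srebf1 had 1.01 ± 0.27 (adjusted p = 0.030, limma) and is described library by library further on.

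The LXR genes leaned to Ly6G+ cells after scaling. Abcg1, a transporter that hands cholesterol to lipoproteins, was at 9.69 and 14.9 TPM in RUNX1mut/HMGA2-OE HSC/P and 6.03 in HMGA2-OE HSC/P. Its Ly6G+ levels were 22.2, 14.5, 11.6 and 10.5 TPM in RUNX1mut/HMGA2-OE, RUNX1mut, HMGA2-OE and Control, which overlap those of HSC/P as deposited, and its scaled log2 difference was -2.57 ± 0.33 (adjusted p = 0.0036, limma). Mylip, a ubiquitin ligase that removes lipoprotein receptors, was at 12.5 and 16.7 TPM in RUNX1mut/HMGA2-OE HSC/P and 6.92 in HMGA2-OE HSC/P, against 13.9, 9.16, 7.54 and 7.74 TPM in Ly6G+ cells, with -1.74 ± 0.32 (adjusted p = 0.011, limma). Without the RUNX1mut/HMGA2-OE Ly6G+ library Abcg1 was at -3.23 and Mylip at -2.46. Without scaling Abcg1 was at -0.84 and Mylip at -0.02, and neither was called. Nr1h2, the widely expressed LXR receptor, was at 86.1 and 88.3 TPM in RUNX1mut/HMGA2-OE HSC/P and 66.4 in HMGA2-OE HSC/P, against 53.5, 35.4, 22.9 and 33.5 TPM. Its scaled log2 difference was -0.81 ± 0.13 (adjusted p = 0.0077, limma) and 1.04 without scaling. Abca1, the other cholesterol exporter of the group, did not go with Abcg1. It was at 2.59 and 1.98 TPM in RUNX1mut/HMGA2-OE HSC/P and 4.31 in HMGA2-OE HSC/P, against 0.511, 0.345, 0.245 and 0.157 TPM in Ly6G+ cells, with a log2 difference of 0.63 ± 0.25 (adjusted p = 0.085, limma). The ratio of Abcg1 to Abca1 lay between 1.40 and 7.55 in HSC/P and between 41.9 and 67.1 in Ly6G+ cells. Abca1 had met the filter only through HSC/P, so this ratio is a description.

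Of the 21 calls between the cell types, 8 held in all 14 other settings: Fasn, Scd2, Elovl6, Idi1, Sqle, Stard4 and Scap, higher in HSC/P, and Msmo1, lower. Among them Fasn and Elovl6 had met the filter only through HSC/P, so their calls are a description. Leaving out a library ended the call of 7 members. Srebf1 and Dhcr7 were lost without the HMGA2-OE HSC/P library (0.55 and 0.58), and Srebf1, Dhcr7 and Acss2 without HMGA2-OE Ly6G+ (0.60, 0.64 and -0.69). Fdft1 was lost without any of these or of the RUNX1mut/HMGA2-OE HSC/P replicates (-0.53 to -0.70). Lss and Hsd17b7 were lost without RUNX1mut/HMGA2-OE Ly6G+ (0.52 and -1.03). Without replicate 1 of RUNX1mut/HMGA2-OE HSC/P the calls of Srebf1 (0.97), Dhcr7 (0.91), Lss (0.78) and Acss2 (-0.67) were lost as well as that of Acaca, and without replicate 2 that of Lss (1.07). Over all 7 libraries, on scaled TPM, 11 members were higher in every HSC/P library than in any Ly6G+ library and 11 were lower, of 34, against 35.1% and 35.4% of all genes. On TPM as deposited these counts were 26 and 2, against 66.5% and 9.18% of all genes. Cell cycle genes moved with the cell types as well: 11 of 20 were called higher and 1 lower in HSC/P. Their summed TPM was 2847 to 3321 in HSC/P and 268 to 647 in Ly6G+ cells, with none at 0, and their part in the members' differences was not tested.

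RUNX1mut/HMGA2-OE and HMGA2-OE HSC/P were compared in 3 libraries. No gene of 12226 passed the adjusted threshold (0%), in limma with 1 residual degree of freedom, where the smallest adjusted p was 0.11 and 1894 genes (15.5%) had an unadjusted p under 0.05. Members gave 5 of 34 at that unadjusted level, 4 lower and 1 higher, against 6.76% lower and 8.74% higher over all genes. These values therefore describe 2 libraries against 1. Of the 7 fatty acid members tested 6 were lower with the RUNX1 mutation, with a median log2 difference of -0.73, against -0.00117 over all genes, and the 6 were lower under each scaling. Sterol pathway members showed no such lean, with 12 higher and 10 lower and a median of 0.05. Against each mutant library alone, without replicate 1 and without replicate 2 in turn, the fatty acid median was -0.98 and -0.51, and the sterol median -0.10 and 0.15. Of 24 other fatty acid and lipid synthesis genes, outside the members, 9 were higher and 15 lower. Their median was -0.11, or 0.04 without scaling. The 2 mutant libraries lay within 1.5-fold of each other for 31 of 34 members (91.2%), against 86.9% of all genes. The median absolute log2 gap between them was nevertheless larger for members, at 0.31, than for all genes, at 0.18.

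Acss2 had the largest difference of any member in HSC/P. On scaled TPM over the 7 libraries it was at 4.18 and 5.11 in RUNX1mut/HMGA2-OE HSC/P, against 13.1 in HMGA2-OE HSC/P. The log2 difference was -1.34 ± 0.21 (unadjusted p = 0.0045, adjusted p = 0.16, limma). Scd1 had -1.03 ± 0.35, Acaca -0.80 ± 0.30, Scd2 -0.73 ± 0.27 and Acly -0.67 ± 0.19, all with adjusted p of 0.27 or more. In each of these genes both mutant libraries were below the HMGA2-OE library, by deposited TPM as well. Fasn, between them in the pathway, was nearly level, with -0.16 ± 0.16, and Elovl6 had 0.21 ± 0.24.

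Sterol enzymes varied gene by gene in HSC/P. Lss was at 16.5 and 10.6 TPM in RUNX1mut/HMGA2-OE HSC/P, against 6.02 in HMGA2-OE HSC/P, with a log2 difference of 0.89 ± 0.35 (adjusted p = 0.36, limma). Mvk (mevalonate kinase) had 0.57 ± 0.27 and Msmo1 0.49 ± 0.19, both higher in each mutant library. Fdps, at 110.2 and 67.7 TPM against 121 TPM in HMGA2-OE HSC/P, had -0.62 ± 0.36, with its mutant replicates far apart. Sc5d had -0.69 ± 0.24 (unadjusted p = 0.049, adjusted p = 0.32, limma), Tm7sf2 -0.49 ± 0.20, and Mvd -0.41 ± 0.30. Among regulators Srebf1 had -0.55 ± 0.20 and Stard4 0.41 ± 0.16. The LXR targets were split, with Mylip at 0.83 ± 0.25 (unadjusted p = 0.033, adjusted p = 0.28, limma), Abcg1 at 0.76 ± 0.31 and Abca1 at -0.81 ± 0.31.

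Markers of other cells moved in the same 3 libraries. Neutrophil markers summed to 18049 and 18883 TPM in RUNX1mut/HMGA2-OE HSC/P, against 63247 in HMGA2-OE HSC/P, and 10 of 12 were lower. Erythroid markers were lower in 12 of 12, or 11 without scaling (summed TPM of 1413 and 2717, against 2833), megakaryocyte markers higher in 8 of 8 (948 and 2448, against 446), and stem and progenitor markers higher in 9 of 9 (973 and 966, against 356). Cell cycle genes were lower in 20 of 20, or 19 without scaling (2847 and 2990, against 3321). None of these markers was at 0 in HSC/P. The part of these markers in the members' values was not tested.

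**Figure D4:**
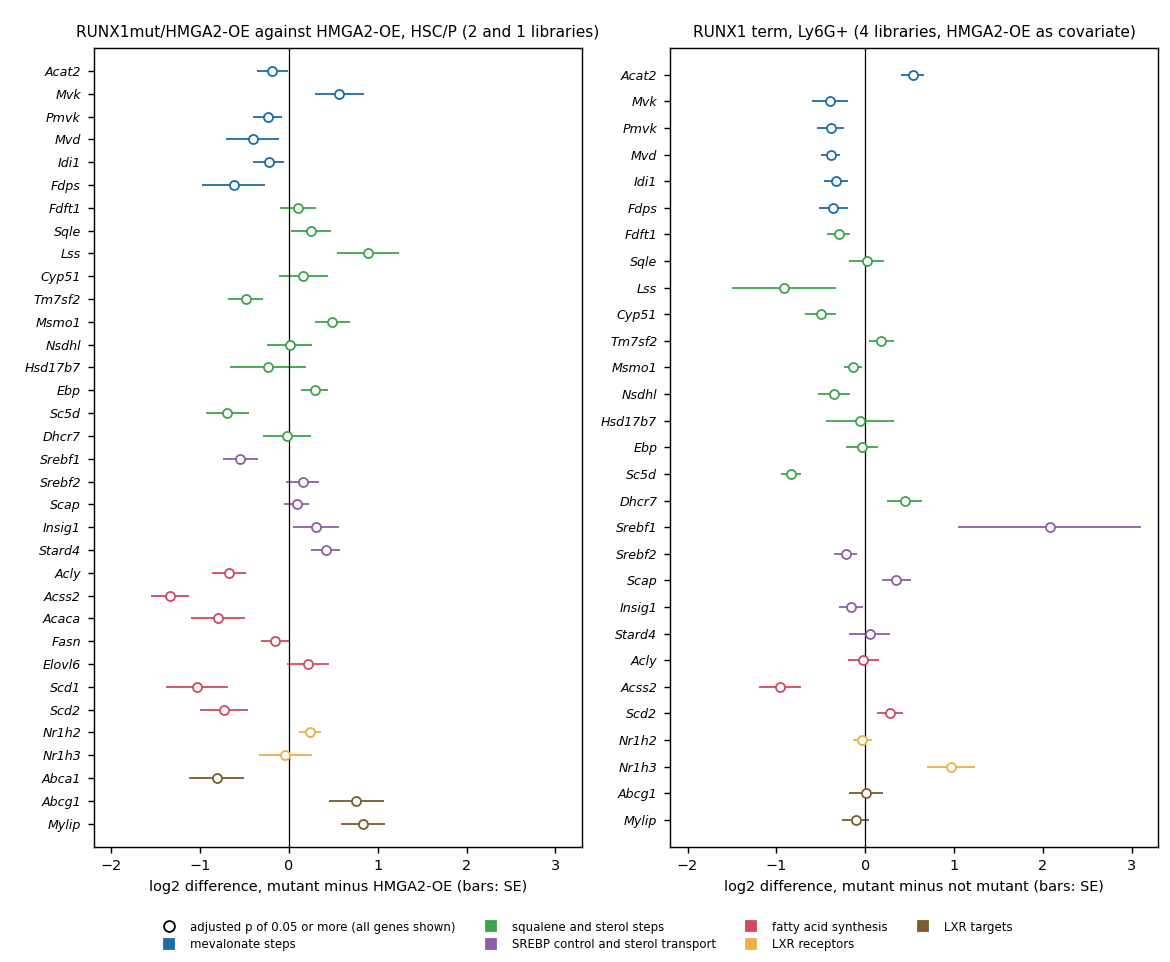
Log2 differences of scaled TPM + 1 with SE bars for RUNX1mut/HMGA2-OE minus HMGA2-OE in HSC/P (left, 34 members) and for the additive RUNX1 term among Ly6G+ libraries (right, 29 members), with no member past an adjusted p of 0.05. On the left most fatty acid members lie below 0, with Acss2 at -1.34, and on the right Srebf1 at 2.08 has by far the widest bar.

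In Ly6G+ cells each genotype had 1 library, so the RUNX1 mutation and HMGA2-OE were read as terms of an additive fit to the 4. For the RUNX1 term no gene of 9820 passed (0%; limma, 1 residual degree of freedom, smallest adjusted p 0.33), and 1407 (14.3%) had an unadjusted p under 0.05. Members tested were 29, since Acaca, Fasn, Elovl6, Scd1, Abca1 and Me1 fell below 1 TPM in all but at most 1 library. At the unadjusted level 2 members were higher and 3 lower, against 7.71% and 6.62% of all genes. Nr1h3, among those higher, met the filter only through the mutant libraries. Sterol pathway members were lower in 15 of 22, with a median of -0.19 against 0.01 for all genes. That lean rested on scaling, which matters here because the median gene moved by 0.58 without it: unscaled, 18 of 22 were higher with a median of 0.38, and 15 of the 29 members changed direction between scalings.

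For Sc5d and Acss2 the RUNX1 term was below 0 under every scaling. Sc5d was at 10.4 scaled TPM in RUNX1mut/HMGA2-OE and 9.56 in RUNX1mut, against 19.7 in HMGA2-OE and 17.6 in Control. Its RUNX1 term was -0.84 ± 0.11 (unadjusted p = 0.0071, adjusted p = 0.33, limma). Acss2 was at 4.40 scaled TPM in RUNX1mut/HMGA2-OE and 6.62 in RUNX1mut, against 12.2 in HMGA2-OE and 10.8 in Control, with a term of -0.96 ± 0.23 (unadjusted p = 0.032, adjusted p = 0.33, limma). In neither gene did the scaled mutant values overlap the others, although the deposited TPM of Sc5d did. Both genes also had differences below 0 with the mutation in HSC/P, but neither passed the adjusted threshold in either comparison. On scaled values Pmvk, Mvd, Idi1, Fdps, Hsd17b7 and Acly were below 0 in both comparisons too, and the remaining members tested in both were not. The share of all genes below 0 in both, or without overlap in Ly6G+ cells, was not computed. Acat2 was at 4.43 scaled TPM in RUNX1mut/HMGA2-OE and 3.40 in RUNX1mut, against 2.65 in HMGA2-OE and 2.12 in Control, a term of 0.53 ± 0.13 (unadjusted p = 0.035, adjusted p = 0.34, limma). Mvd had -0.39 ± 0.11, which turned to 0.25 without scaling, and Cyp51 had -0.50 ± 0.18.

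Nr1h3, the LXR receptor of macrophages and liver, was between 2.23 and 2.49 TPM in HSC/P and was low in HMGA2-OE and Control Ly6G+ cells. It was at 1.39 scaled TPM in RUNX1mut/HMGA2-OE and 2.91 in RUNX1mut, against 0.572 in HMGA2-OE and 0.555 in Control. Both mutant libraries were above the others, with a term of 0.97 ± 0.27 (unadjusted p = 0.045, adjusted p = 0.35, limma). As deposited, Nr1h3 reached 1 TPM in the mutant Ly6G+ libraries only. It thus met the filter of this fit only through them, and its difference is a description. Nr1h2 was level, at 33.9, 34.8, 33.2 and 37.2 scaled TPM in RUNX1mut/HMGA2-OE, RUNX1mut, HMGA2-OE and Control. Monocyte and macrophage markers were higher for the RUNX1 term in 6 of 8 tested, with a median of 0.89, and 0 of 10 were at 0 in any Ly6G+ library. Erythroid markers were higher in 10 of 11, at summed TPM of 5901 in RUNX1mut/HMGA2-OE and 344 in RUNX1mut, against 86.7 in HMGA2-OE and 103 in Control. The part of these markers in the values of members was not tested.

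In Srebf1 and Lss 1 Ly6G+ library stood apart from the other 3. Srebf1 (chr11:60199089-60222581, minus strand) was at 10.8 TPM in RUNX1mut/HMGA2-OE Ly6G+, 89.6 in RUNX1mut, 3.44 in HMGA2-OE and 5.01 in Control. As deposited, the RUNX1mut value was above all 3 HSC/P libraries, which had 49.4 and 40.9 TPM with the mutation and 59.8 without. Its RUNX1 term was 2.08 ± 1.03 (adjusted p = 0.44, limma), and in a fit to all 7 libraries it turned to -0.20 without RUNX1mut Ly6G+ or without Control Ly6G+. Srebf2, by contrast, spanned 15.4 to 22.2 scaled TPM in Ly6G+ cells. Lss (chr10:76531588-76557138, plus strand) was at 1.49 TPM in RUNX1mut/HMGA2-OE, 1.04 in RUNX1mut, 0.632 in HMGA2-OE and 5.61 in Control, and its RUNX1 term was -0.91 ± 0.59 (adjusted p = 0.51, limma). In the fit to all 7 libraries the term for Lss turned to 0.42 without either of these same libraries. GENCODE M21 annotates a transcript of 350 to 420 nt for both genes, as for 8 of 35 members (22.9%) and 24% of genes above the filter. The other members with one were Mvk, Dhcr7, Scap, Elovl6, Nr1h2 and Nr1h3. Between RUNX1mut and Control Ly6G+ libraries 5.05% of genes with such a transcript differed at least 4-fold, and 0.737% of genes without one. Between RUNX1mut/HMGA2-OE and HMGA2-OE the shares were 8.82% and 0.987%, and between RUNX1mut/HMGA2-OE and RUNX1mut 9.9% and 0.64%. For HMGA2-OE over Control these shares were 7.38% and 0.375%. This split of genes was chosen after seeing the data, and the part of such transcripts in Srebf1, Lss and the other members named was not tested.

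**Figure D5:**
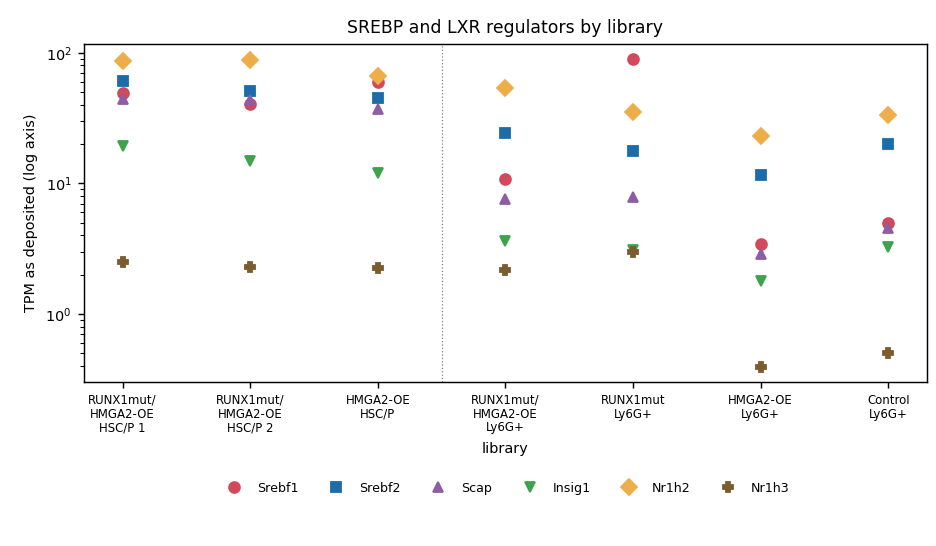
TPM as deposited, on a log axis, of 4 SREBP system genes and both LXR receptors in each library, HSC/P left of the dotted line. Srebf1 at 89.6 TPM in RUNX1mut Ly6G+ lies far above the other Ly6G+ libraries, and Nr1h3 is at 2.19 TPM in RUNX1mut/HMGA2-OE and 2.97 in RUNX1mut Ly6G+, against 0.395 in HMGA2-OE and 0.5 in Control.

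Set pair by pair with no test, few members passed 2-fold. In RUNX1mut over Control Ly6G+ 2 of 29 members were at least 2-fold higher, Srebf1 and Nr1h3, and Lss was lower, against 5.36% and 3.56% of all genes. Nr1h3 met the filter only through the mutant libraries. Srebf1, Nr1h3 and Lss each have an annotated transcript of 350 to 420 nt, and its part in these ratios was not tested. In RUNX1mut/HMGA2-OE over HMGA2-OE Ly6G+ 0 were higher and Acss2 was lower, with a log2 ratio of -1.29, against 4.93% and 4.99% of all genes. Sc5d came close to 2-fold in both pairs, with log2 ratios of -0.82 in RUNX1mut over Control and -0.86 in RUNX1mut/HMGA2-OE over HMGA2-OE.

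HMGA2-OE was testable in Ly6G+ cells, where 0 of 9820 genes passed (0%; limma, smallest adjusted p 0.26) and 639 (6.51%) had an unadjusted p under 0.05. Members were lower in 21 of 29, with a median of -0.27 against 0.01 for all genes, and 19 of them were lower under each of the 4 scalings. Other genes of these pathways, looked up further on, did not share this lean. Of 50 tested, 27 were higher and 23 lower, with a median of 0.05. Erythroid markers were higher for the same term in 10 of 11 tested, with a median of 0.69, and their part in the members' values was not tested. At the unadjusted level 0 members were higher and 1, Fdft1, was lower, against 3.34% and 3.17% of all genes. With HMGA2-OE, Fdft1 was at 3.36 scaled TPM in RUNX1mut/HMGA2-OE and 4.15 scaled TPM in HMGA2-OE cells, and without it at 4.76 in RUNX1mut and 6.39 in Control, a term of -0.46 ± 0.13 (unadjusted p = 0.045, adjusted p = 0.74, limma). The libraries with HMGA2-OE were below both without it. Fdps had -0.47 ± 0.16, with 14.4 and 16.2 scaled TPM in RUNX1mut/HMGA2-OE and HMGA2-OE, against 17.6 in RUNX1mut and 26.3 in Control. Mvk had -0.47 ± 0.20, Scap -0.40 ± 0.16, and Scd2 -0.31 ± 0.15. In HMGA2-OE over Control 0 members were 2-fold higher and 1, Lss, was lower (3.27% and 3.19% of all genes), and in RUNX1mut/HMGA2-OE over RUNX1mut 0 were higher and 1, Srebf1, was lower (3.97% and 4.39%).

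Whether the RUNX1 difference on HMGA2-OE was unlike in HSC/P and Ly6G+ cells was tested as an interaction in 5 libraries. No gene of 12686 passed (0%; limma, smallest adjusted p 0.12), and 2297 (18.1%) had an unadjusted p under 0.05. Members gave 3 higher and 3 lower at that level, against 8.6% and 9.51% of all genes. Mvk had 1.40 ± 0.37, Mylip 1.13 ± 0.34 and Stard4 0.75 ± 0.22, that is, a more positive RUNX1 difference in HSC/P. Acaca had -1.54 ± 0.45, Scd1 -1.28 ± 0.37 and Acat2 -0.79 ± 0.23. The direction of these 6 held under every scaling, while 13 other members changed direction and the median gene was at -0.77 without scaling. As deposited, Mvk was at 12.7 and 9.71 TPM in RUNX1mut/HMGA2-OE HSC/P, against 6.45 in HMGA2-OE HSC/P. Its deposited Ly6G+ values were nearly level and close to the filter, at 1.33 TPM in RUNX1mut/HMGA2-OE and 1.26 in HMGA2-OE. Only on scaled TPM was the mutant Ly6G+ library lower, at 0.842 against 1.83 in HMGA2-OE. Mvk also has an annotated transcript of 350 to 420 nt, and its part here was not tested. Acss2 had 0.16 ± 0.29 (adjusted p = 0.80, limma), or -0.95 without scaling, which does not show that its differences were alike.

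Another 60 genes of these pathways were looked up beside the members, of which 57 were tested between the cell types. Called higher in HSC/P were 16, and lower 22, of the 57, against 32.2% and 32.5% of all genes. The triglyceride-forming acyltransferases were far lower in HSC/P: Dgat2 had a log2 difference of -5.73 ± 0.30 and Dgat1 one of -5.63 ± 0.13 (adjusted p = 0.00068 and 0.00062, limma). Agpat2, which makes phosphatidic acid, had -4.14 ± 0.15, Hacd4, a dehydratase of fatty acid elongation, -4.65 ± 0.19, and Smpdl3a, a known LXR target, -3.66 ± 0.33. Dgat2 was at 12.4 and 7.88 TPM in RUNX1mut/HMGA2-OE HSC/P and 14.1 in HMGA2-OE HSC/P, against 301, 139, 104 and 97.5 TPM in Ly6G+ cells of RUNX1mut/HMGA2-OE, RUNX1mut, HMGA2-OE and Control. Of the 6 with the largest differences Fads2, a fatty acid desaturase, was the 1 that was higher in HSC/P. It was at 45.7 and 129 TPM in RUNX1mut/HMGA2-OE HSC/P and 49.9 in HMGA2-OE HSC/P, against 1.60, 1.98, 0.149 and 0.570 TPM in the same order of Ly6G+ libraries. Its mutant HSC/P replicates were far apart, its log2 difference was 3.99 ± 0.50 (adjusted p = 0.0035, limma), and it too met the filter only through HSC/P. For the RUNX1 difference in HSC/P 0 of 57 passed, with 6 at the unadjusted level, against 15.5% of all genes. For the RUNX1 term in Ly6G+ cells 0 of 50 passed, with 8 at the unadjusted level, against 14.3% of all genes.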

How the data were processed

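Per the labels, total RNA came from cells of individual mice. Per the submitters' processing notes, bcl2fastq, CASAVA 1.8, kallisto and build mm10 were used. Neither the kallisto version nor the annotation is given in the sources used here. Deposited values were taken as the authors' TPM, judging by sums of 896820 to 993009 a library. TPM keeps no depth, so counting errors are unknown. Symbols and coordinates came from GENCODE M21 (build mm10). Genes with 1 TPM in 2 libraries of a fit were tested with limma 3.58.1 (R 4.3.3; Python 3.11.15 elsewhere) on log2(scaled TPM + 1), which understates changes of low genes. Scaling between libraries used a trimmed mean of log ratios without weights (trims 0.3 and 0.05), variances moderated with a trend, and p-values, two-sided, adjusted by Benjamini-Hochberg over all genes of a fit at 0.05. The ± values are SE. The procedure was tested on simulated data. Members with values in every library are those that passed and those with the largest differences of each role, up to 4. The other pathway genes named, up to 6, are those that passed with the largest differences. Members and lists were chosen with earlier results of these data known.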

Additional observations from a re-analysis of the deposited data

How the results depend on the processing

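Without scaling, 1 gene was called in HSC/P, 133 for the RUNX1 term and 61 for the HMGA2-OE term, and none was a member. Between cell types 24 members were then higher and 1 lower, with Fdft1 at 0.95, Ebp at 0.83, Acss2 at 1.02 and Nr1h2 at 1.04, and Mvd reversed to 0.25 for the RUNX1 term. Upper-quartile scaling gave 6 members lower in HSC/P. Leaving out a library gave 7 to 11 members higher, 7 without replicate 1 of RUNX1mut/HMGA2-OE HSC/P. A fit to all 7 libraries called 58 genes for the HMGA2-OE term, and 69 without Control, 75 without RUNX1mut, 170 without HMGA2-OE and 47 without RUNX1mut/HMGA2-OE Ly6G+. In that fit Lss for the RUNX1 term was 0.42 without Control or without RUNX1mut, and Srebf1 -0.20 in both, while for the HMGA2-OE term Lss was 0.14 without Control, and Srebf1 0.11 and Nr1h3 0.25 without RUNX1mut. The interaction called 3250 genes with no filter on low values and 1 with a filter of 5 TPM, none of them members. With a pseudocount of 5 TPM, RUNX1mut over Control had 1 member 2-fold higher and 0 lower, and HMGA2-OE over Control and RUNX1mut/HMGA2-OE over HMGA2-OE had 0 lower. With 0.1 TPM, RUNX1mut/HMGA2-OE over HMGA2-OE had 1 higher and 2 lower, and over RUNX1mut 1 higher and 3 lower. Unscaled, RUNX1mut/HMGA2-OE over HMGA2-OE had 13 higher and 0 lower, HMGA2-OE over Control 2 lower, and RUNX1mut/HMGA2-OE over RUNX1mut 1 higher. Apart from what these settings changed by their construction, the cause was not tested. In HSC/P, leaving out a mutant replicate left no residual degree of freedom, so those values had no test. No paired analysis was possible because the groups compared share fewer than 2 replicate numbers. Single genotypes in Ly6G+ cells, few residual degrees of freedom and unknown depth limit every value.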
